A study of Chlamydomonas reinhardtii with 15 samples.

Results

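Neutral red (NR) and DBMIB were compared as the 3 NR arrays against the 3 DBMIB arrays, 6 of the 15 arrays of a study of the unicellular green alga Chlamydomonas reinhardtii. The 6 arrays are those labelled as wild-type cultures exposed to either chemical for 2 h, and the pair was singled out with earlier results of these data known, as the least similar of the responses. The wild-type strain 4A+ (background 137c) grew mixotrophically on Tris-acetate-phosphate medium at 25 °C in light of 100 µmol photons per square metre and second. Subcultures of 20 ml then received 3 µM NR, 2 µM DBMIB, 100 µM tert-butylhydroperoxide (tBOOH), 0.3 mM 2(E)-hexenal (Hexenal) or no chemical (control), with 3 biological replicates per group and 1 array per replicate. All 5 groups shared strain, medium, light and temperature. Each chemical was given at 1 dose and for 1 time, so a difference between chemicals and a difference between the strengths of their doses cannot be told apart.

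NR is a dye that takes up light and passes the energy to oxygen, which gives singlet oxygen, a short-lived oxidant, inside the illuminated cell. DBMIB is a quinone that occupies the site where the cytochrome b6f complex oxidises plastoquinol, so that electrons from photosystem II no longer reach photosystem I; as a reactive quinone it can also act as an electrophile. Algae are known to answer singlet oxygen and electrophiles by changing nuclear transcripts, among them those of detoxifying enzymes. The comparison asks which transcripts tell the response to a singlet oxygen generator from that to a quinone.

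The array reads 16283 probes, each listed under 1 transcript model, though 1040 of them may also read related transcripts. Of all probes, 6942 (42.6%) could be tied to 6854 loci of the v5.5 annotation. The tables used here pair these loci with no gene symbol, so loci are given by their tags and no function is stated for them. Levels are log2 processed signals from which the 75th percentile of the array was subtracted, so that probes above 0 are the bright ones of their array. A probe was called at an adjusted p under 0.05 (limma's moderated test, Benjamini-Hochberg adjustment over 16283 probes, two-sided). Differences are NR minus DBMIB, positive where NR was higher.

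Arrays of the same chemical resembled each other closely, with Pearson correlations across probes of 0.988 to 0.995 among NR arrays and 0.983 to 0.986 among DBMIB arrays, against 0.895 to 0.931 between both groups (probes are not independent replicates). The NR arrays were brighter before scaling, with 75th percentiles of 719 to 743 on the linear scale against 483 to 509. Under NR 88.4% to 89.9% of probes were well above background by the scanner's own flag, and on DBMIB replicates 1, 2 and 3 the shares were 88.7%, 72.7% and 84.9%. No spot was saturated. The part of this difference in brightness in the results below was not tested directly.

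Most of the probes differed between the chemicals. Of 16283 probes, 9228 (56.7%) were called, 4625 of them higher under NR (28.4%) and 4603 higher under DBMIB (28.3%). The median difference over all probes was -0.04, with quartiles at -0.65 and 0.74, and the median standard error was 0.222. On 9946 probes (61.1%) the 3 NR arrays and the 3 DBMIB arrays did not overlap.

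The numbers leaned towards NR at 2-fold, were nearly even at 4-fold and leaned towards DBMIB at larger sizes. At 2-fold or more, 3113 called probes were higher under NR (19.1%) and 2534 under DBMIB (15.6%), and at 4-fold or more 915 (5.62%) and 904 (5.55%). At 8-fold or more, 128 were higher under NR (0.786%) against 393 under DBMIB (2.41%), and at 16-fold or more 11 (0.0676%) against 158 (0.97%). No probe was 64-fold or more higher under NR, while 29 (0.178%) were so under DBMIB. Fitted differences ran from -9.28 to 5.76, but both ends are nominal, since 0 of 3 NR arrays detected the probe at the first and 1 of 3 DBMIB arrays that at the second.

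The centring sets part of this balance. With arrays centred on the spike-in controls, RNAs added in known amounts, the median over all probes moved by 0.50 towards NR, and 76.6% of 8651 calls were higher under NR, against 50.1% with the 75th percentile. At 2-fold or more 4950 probes were then higher under NR and 1479 under DBMIB. At 8-fold or more the order turned, with 373 against 251. At 16-fold or more it did not, with 31 against 105, nor at 32-fold or more, with 6 against 51, compared with 5 (0.0307%) and 66 (0.405%) in the reported scaling. With normexp background correction the median moved by -0.29, 29.2% of 12062 calls were higher under NR, and 20 probes were 8-fold or more higher under NR against 154 under DBMIB.

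**Figure D1:**
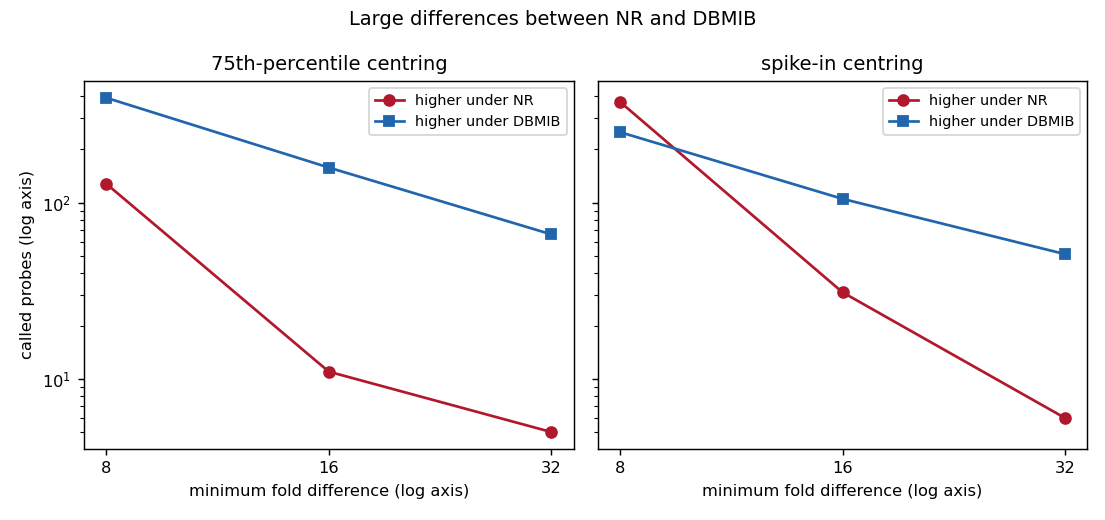
Called probes that differed by at least 8, 16 or 32-fold (x axis, log scale) between NR and DBMIB, as counts (y axis, log scale), with arrays centred on the 75th percentile (left) or on the spike-in controls (right). Left, DBMIB-higher probes outnumber NR-higher ones at every size; right, the order at 8-fold is turned (373 against 251) and at 32-fold it is not (6 against 51).

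**Figure D2:**
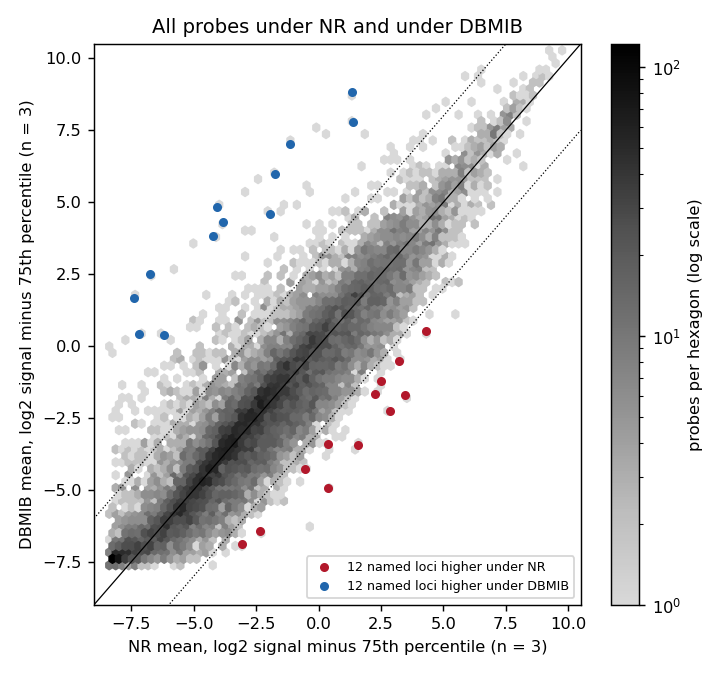
Mean level of each probe on the 3 NR arrays (x axis) and the 3 DBMIB arrays (y axis), both as log2 signal minus the array's 75th percentile; grey shading gives probes per hexagon on a log scale, the solid line marks equal levels and the dotted lines 8-fold differences. The 12 named loci higher under DBMIB (blue) lie far above the upper dotted line, and the 12 higher under NR (red) lie closer to the lower one.

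The loci named below are the 12 with the largest difference in each direction among called, specific probes with a tag, well above background on every array of the brighter group and without overlap between the groups. Having been picked for the difference, they are described, and the fit's p stands beside each as its place among all probes. Changes against control come from the deposited log2 values alone. They were not repeated with another centring or background correction, so how far they depend on the scaling was not tested. NR and DBMIB share the same 3 control arrays, and every value against control shares arrays with the choice of the loci, so these changes are set side by side and nothing is drawn from their likeness.

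Among the 12 loci higher under NR, the 10 with at least 1 DBMIB array well above background differed by fitted folds of 13.4 to 40.6, and for the other 2 the bounds were 8.06-fold and 12.8-fold. They fell into 2 kinds by their fitted changes against control. For 5 of them NR was 3 or more log2 units above control. For the other 7 DBMIB was 2 or more log2 units below control. The kinds are set by size and are not exclusive. Of the 12, 7 were called higher than control under NR (23.7% of all probes). Under DBMIB 9 were called lower (30.4%).

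Among the 5 loci that NR raised by 3 or more log2 units, CHLRE_10g429050v5 differed most. Its levels were 0.13, 0.69 and 0.37 on the NR arrays and -4.57, -5.47 and -4.80 on the DBMIB arrays. The NR arrays lay close together and far above the DBMIB arrays, of which 2 of 3 were well above background. The difference was 5.34 (SE 0.31, 40.6-fold, adjusted p = 5.49e-08). Against control it changed by 5.21 under NR (adjusted p = 7.24e-09) and by -0.08 under DBMIB (adjusted p = 0.815), so that DBMIB cultures stood near the control level of 4.56 ± 0.24 (SD, n = 3, deposited scale).

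CHLRE_09g398700v5 and CHLRE_06g299700v5 were raised by NR and lowered by DBMIB. CHLRE_09g398700v5 stood at 2.86, 3.75 and 3.73 under NR and at -1.69, -1.97 and -1.48 under DBMIB, a difference of 5.16 (SE 0.27, 35.8-fold, adjusted p = 2.23e-08). Its change against control was 4.13 under NR and -1.01 under DBMIB (adjusted p = 2.69e-08 and 0.00312). CHLRE_06g299700v5 stood at 2.44, 3.12 and 2.97 under NR and at -2.24, -2.05 and -2.46 under DBMIB. Here too all arrays were well above background and the groups lay far apart, by 5.09 (SE 0.22, 34.1-fold, adjusted p = 6.32e-09). It rose by 4.13 under NR and changed by -0.998 under DBMIB (adjusted p = 7.63e-09 and 0.000856).

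CHLRE_06g281250v5 and CHLRE_05g234661v5 rose under NR and did not pass the test against control under DBMIB. CHLRE_06g281250v5 stood at -0.61, 0.85 and 0.85 under NR and at -3.19, -3.41 and -3.60 under DBMIB, a difference of 3.77 (SE 0.36, adjusted p = 2.76e-06). NR replicate 1 was the low one of its group. The change against control was 4.41 under NR and 0.64 under DBMIB (adjusted p = 3.1e-07 and 0.137). CHLRE_05g234661v5 stood at 2.54, 2.32 and 2.66 under NR and at -1.73, -1.12 and -0.85 under DBMIB, a difference of 3.74 (SE 0.33, adjusted p = 1.32e-06). It rose by 3.74 under NR, and under DBMIB its change was 0.05 (adjusted p = 3.55e-07 and 0.90).

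Of the 7 loci that DBMIB lowered by 2 or more log2 units, 3 were bright in control and varied between replicates. CHLRE_16g663900v5 stood at 2.36, 0.93 and 1.41 under NR and at -3.11, -5.23 and -1.98 under DBMIB, with 2 of 3 DBMIB arrays well above background. The DBMIB arrays spread over more than 3 log2 units. The difference was 5.01 (SE 0.88, 32.1-fold, adjusted p = 0.000366), and it was 4.11 without DBMIB replicate 2 and 5.74 without DBMIB replicate 3. Against a control of 12.17 ± 0.11 on the deposited scale it fell by 6.14 under DBMIB (adjusted p = 3.81e-06; change -5.37 without DBMIB replicate 2 and -6.83 without DBMIB replicate 3), and under NR its change was -1.27 (adjusted p = 0.179).

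CHLRE_03g199535v5 stood at 5.23, 3.60 and 4.12 under NR and at 0.42, -0.83 and 1.95 under DBMIB, a difference of 3.80 (SE 0.69, adjusted p = 0.000443). CHLRE_01g050950v5 stood at 4.11, 2.64 and 2.95 under NR and at -0.57, -1.68 and 0.67 under DBMIB, a difference of 3.76 (SE 0.62, adjusted p = 0.000211). In both, as in CHLRE_16g663900v5, NR replicate 1 was the highest NR array and DBMIB replicates 2 and 3 were the lowest and highest DBMIB arrays. Without DBMIB replicate 2 the difference of CHLRE_03g199535v5 was 3.13, and without DBMIB replicate 3 it was 4.52; the latter array also moved CHLRE_01g050950v5, to 4.36. DBMIB lowered them against control by a log2 change of -5.47 and -5.40 (adjusted p = 2.63e-06 and 9.04e-07). Without DBMIB replicate 3 these were -6.19 and -5.98, and without DBMIB replicate 2 the first was -4.80. The NR changes were -1.65 and -1.67 (adjusted p = 0.0458 and 0.0249), and both calls were lost when single arrays were left out, among them control replicate 1, NR replicate 2 and NR replicate 3; that of CHLRE_03g199535v5 was also lost without control replicate 2 or 3.

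The remaining 4 were tight under NR. CHLRE_17g711150v5 stood at 2.12, 2.20 and 2.41 under NR and at -1.05, -1.93 and -1.99 under DBMIB, a difference of 3.90 (SE 0.23, adjusted p = 5.95e-08). It changed by 0.98 under NR and by -2.86 under DBMIB against control (adjusted p = 0.00283 and 7.11e-08). CHLRE_03g197900v5 stood at -0.43, -0.68 and -0.51 under NR and at -3.66, -4.99 and -4.21 under DBMIB, where 2 of 3 arrays were well above background. Its difference of 3.74 (SE 0.26, adjusted p = 2.29e-07) went with a change of -3.27 under DBMIB and 0.42 under NR (adjusted p = 7.55e-09 and 0.115).

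CHLRE_06g263050v5 and CHLRE_17g727650v5 were not well above background on any DBMIB array, so only a nominal bound can be given. It sets the NR mean against the higher, array by array, of the probe's own signal and the dimmest signal that is well above background. CHLRE_06g263050v5 stood at -2.33, -2.40 and -2.35 under NR against -6.0, -6.66 and -6.60 under DBMIB, at least 12.8-fold (adjusted p = 1.57e-08). CHLRE_17g727650v5 stood at -2.996, -3.26 and -2.99 against -6.18, -6.69 and -7.74, at least 8.06-fold (adjusted p = 1.29e-06). Against control CHLRE_06g263050v5 changed by 1.18 under NR (adjusted p = 0.000257) and -3.07 under DBMIB (adjusted p = 1.11e-08). For CHLRE_17g727650v5 these changes were 0.37 (adjusted p = 0.403) and -3.815 (adjusted p = 1.86e-07). The sizes under DBMIB are nominal. With normexp background correction, which adds an offset that compresses dim signals, their differences were 1.07 and 0.64 on the log2 scale and remained called, so the sizes of dim loci depend on the treatment of background.

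A further probe, for transcript 296649, had the largest fitted difference towards NR but has no locus tag; it was singled out after its values were seen. It stood at -1.26, 0.02 and -0.09 under NR and at -5.23, -6.63 and -6.75 under DBMIB, with 1 of 3 DBMIB arrays well above background. The fitted difference of 5.76 (SE 0.45, 54.3-fold, adjusted p = 4.89e-07) therefore rests mainly on signals near background, and its size is nominal. Like the first group it was raised by NR, by 5.18 against control (adjusted p = 1.4e-07), with a change of -0.69 under DBMIB (adjusted p = 0.141).

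**Figure D3:**
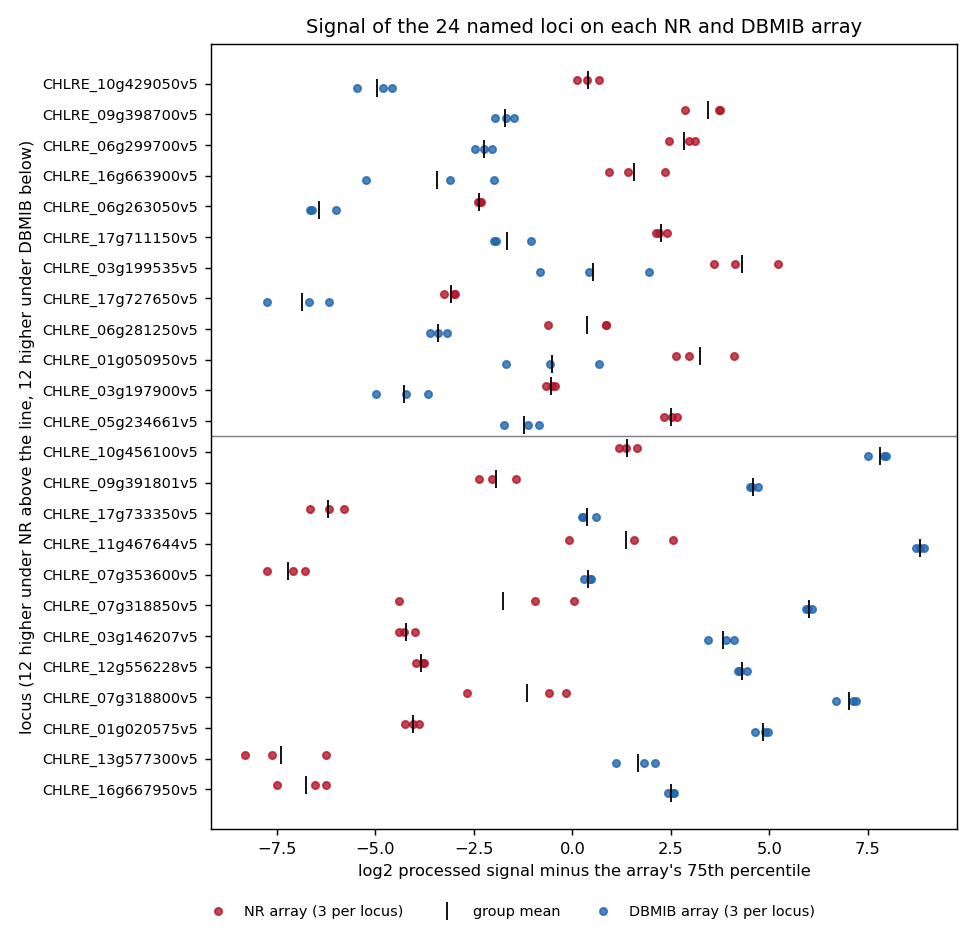
Level of the 24 named loci (rows) on each of the 3 NR arrays (red) and 3 DBMIB arrays (blue), as log2 signal relative to the 75th percentile of its array (x axis); black ticks are group means. The loci were chosen for having no overlap between the groups, which held on 61.1% of all probes. The gaps below the line (higher under DBMIB, differences of -6.41 to -9.28) are wider than those above it (3.74 to 5.34).

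The 12 loci higher under DBMIB differed far more, by fitted folds of 84.8 and upwards. All 12 were called higher under DBMIB than control, with fitted changes of 3.33 to 11.83 and a median of 7.87. Under NR 3 of them were higher than control, 4 lower and 5 not called, and for 7 the NR change was smaller than 1 log2 unit in size. A total of 31.5% of all probes were called higher under DBMIB against control, and 23.7% higher and 21.3% lower under NR.

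CHLRE_16g667950v5 was called higher than control under DBMIB and lower under NR. It stood at -7.49, -6.54 and -6.26 on the NR arrays, none of them well above background, and at 2.42, 2.57 and 2.55 on the DBMIB arrays. The DBMIB arrays lay close together and exceeded the NR arrays by at least 570-fold (fitted difference -9.28, SE 0.32, adjusted p = 8.63e-10). Against a control of 5.42 ± 0.06 on the deposited scale it rose by 6.42 under DBMIB (adjusted p = 1.23e-10) and its fitted change under NR was -2.91 (adjusted p = 5.78e-07), a nominal size, since the NR signals were not well above background.

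CHLRE_13g577300v5 and CHLRE_07g353600v5 were likewise below reliable detection on all NR arrays. The first stood at -8.32, -6.26 and -7.62 under NR and at 1.12, 1.82 and 2.09 under DBMIB, at least 332-fold higher (adjusted p = 2.29e-07). The second stood at -6.80, -7.75 and -7.09 under NR and at 0.28, 0.46 and 0.46 under DBMIB, at least 158-fold higher (adjusted p = 2.74e-08). Their fitted changes against control were 9.35 and 7.27 under DBMIB (adjusted p = 3.65e-09 and 1.98e-09), and the NR changes of 0.30 and -0.33 did not pass the test (adjusted p = 0.688 and 0.526). Their control values, 1.71 ± 0.31 and 2.49 ± 0.40 on the deposited scale, were near those under NR, so the sizes of these rises are nominal too. With normexp correction the 3 undetected loci differed by -5.86, -5.15 and -3.94, all still called.

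CHLRE_01g020575v5, CHLRE_12g556228v5 and CHLRE_03g146207v5 were detected on every array, dim under NR and bright under DBMIB. The levels of CHLRE_01g020575v5 were -4.24, -4.04 and -3.89 under NR and 4.63, 4.97 and 4.89 under DBMIB, a 474-fold difference (-8.89, SE 0.41, adjusted p = 8.3e-09). For CHLRE_12g556228v5 they were -3.80, -3.97 and -3.76 against 4.42, 4.26 and 4.21, a 282-fold difference (-8.14, SE 0.16, adjusted p = 1.47e-11). Its standard error was the smallest among the 12, and the replicates of both groups lay close together. Those of CHLRE_03g146207v5 were -4.41, -4.27 and -4.00 against 3.43, 4.11 and 3.90, a 264-fold difference (-8.04, SE 0.26, adjusted p = 4.21e-10). DBMIB raised the 3 loci by 8.85, 9.05 and 8.47 against control; NR gave changes of 0.01, 0.97 and 0.48, of which only the middle one was called (adjusted p = 0.000253).

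CHLRE_07g318800v5 and CHLRE_07g318850v5, which lie next to each other on chromosome 7 of the v5.5 assembly, were raised by both chemicals, and by DBMIB far more. CHLRE_07g318800v5 stood at -2.68, -0.15 and -0.60 under NR and at 7.21, 7.13 and 6.70 under DBMIB, a 285-fold difference (-8.16, SE 0.69, adjusted p = 9.76e-07). CHLRE_07g318850v5 stood at -4.39, 0.04 and -0.94 under NR and at 6.08, 5.97 and 5.93 under DBMIB, a 217-fold difference (-7.76, SE 0.93, adjusted p = 1.7e-05). In both loci NR replicate 1 lay far below the other NR arrays, whereas the DBMIB arrays stayed together. Without it the differences were -7.39 and -6.45, and without NR replicate 2 that of CHLRE_07g318850v5 was -8.66. Against control the NR changes were 3.97 and 3.29 (adjusted p = 0.000282 and 0.00609), beside 11.83 and 10.81 under DBMIB. The NR change of CHLRE_07g318800v5 was 4.72 without NR replicate 1 and 4.57 without control replicate 2, which moved its DBMIB change to 12.43. That of CHLRE_07g318850v5 was 4.57 without NR replicate 1 and 2.39 without NR replicate 2, and both stayed called.

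CHLRE_11g467644v5 was the brightest of the 12 under DBMIB. It stood at -0.07, 2.55 and 1.57 under NR and at 8.73, 8.91 and 8.82 under DBMIB, a 177-fold difference (-7.47, SE 0.56, adjusted p = 3.79e-07). NR replicate 1 was again the lowest, and the difference was -6.76 without it and -8.07 without NR replicate 2. It rose by 6.96 under DBMIB against control and changed by -0.08 under NR (adjusted p = 3.38e-08 and 0.916); the NR change was 0.62 without NR replicate 1 and -0.68 without NR replicate 2, neither called.

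CHLRE_09g391801v5 and CHLRE_10g456100v5 moved in opposite directions against control. CHLRE_09g391801v5 stood at -2.38, -2.03 and -1.44 under NR and at 4.56, 4.50 and 4.71 under DBMIB, a 93.2-fold difference (-6.54, SE 0.24, adjusted p = 1.38e-09). From a control of 10.55 ± 0.37 on the deposited scale it fell by 3.10 under NR and rose by 3.33 under DBMIB (adjusted p = 1.38e-07 and 1.97e-08), nearly equal steps either way. CHLRE_10g456100v5 stood at 1.63, 1.20 and 1.35 under NR and at 7.96, 7.92 and 7.51 under DBMIB, an 84.8-fold difference (-6.41, SE 0.20, adjusted p = 4.21e-10). It fell by 1.24 under NR and rose by 4.90 under DBMIB (adjusted p = 0.000284 and 2.47e-10).

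CHLRE_17g733350v5 stood at -6.18, -6.66 and -5.78 under NR, with 1 of 3 arrays well above background, and at 0.60, 0.26 and 0.24 under DBMIB, a fitted 95.2-fold difference (-6.57, SE 0.31, adjusted p = 9.5e-09). This size is nominal, since it rests mainly on NR signals near background, and with normexp correction the difference was -3.79. Against control CHLRE_17g733350v5 rose by 5.76 under DBMIB. Its NR change of -0.94 was called narrowly (adjusted p = 0.0404) and lost the call without control replicate 1, NR replicate 1 or NR replicate 2 and with a replicate block (adjusted p = 0.0548), so a fall under NR is not established.

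Every one of the 24 loci kept the sign of its difference and its call in every alternative tried. As the loci were picked for large called differences on these same arrays, this was likely from the outset. The 6 arrays alone, the replicate block and the filters to specific or brighter probes leave the differences themselves unchanged. The size did not hold for all: with normexp correction the 12 loci higher under NR ranged from 0.64 to 4.68, and the 12 higher under DBMIB from -3.79 to -7.76. With spike-in centring the ranges were 4.24 to 5.84 and -5.91 to -8.78.

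**Figure D4:**
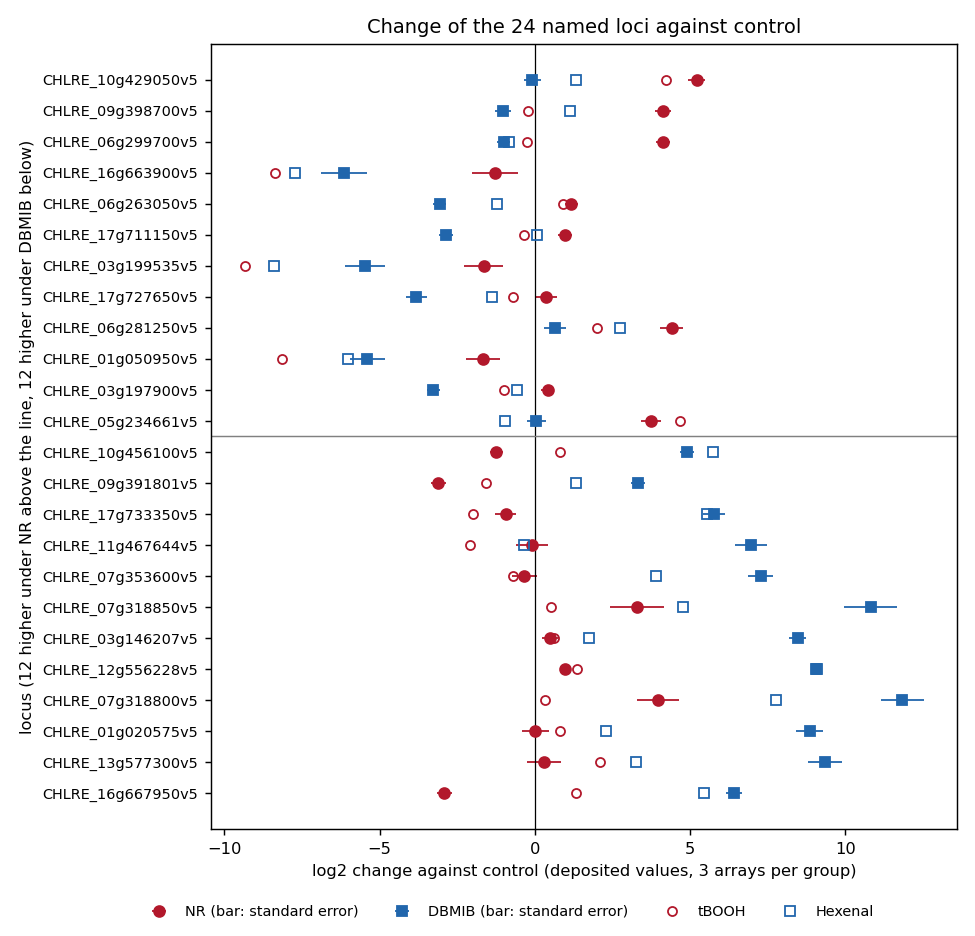
Change of the 24 named loci (rows) against control on the deposited log2 scale (x axis) under NR (filled circles) and DBMIB (filled squares), with standard errors, and under tBOOH (open circles) and Hexenal (open squares); 3 arrays per group, controls shared by all. Above the line 5 loci have NR far to the right and 7 have DBMIB far to the left; below it all 12 have DBMIB far to the right (for CHLRE_12g556228v5 the Hexenal square lies under the DBMIB one).

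The changes against control were also counted over all probes that differed strongly, again with values against control that share arrays with the choice of these probes. Here too only the deposited scaling was used, and the part of the scaling in these shares was not tested. Of the 128 probes 8-fold or more higher under NR, 112 (87.5%, beside 30.4% of all probes) were called lower than control under DBMIB and 1 higher. Under NR 44 (34.4%, beside 23.7% of all probes) were called higher than control, 20 (15.6%, beside 21.3%) lower, and 64 (50%, beside 55.0%) not called. Their median change against control was 0.19 under NR and -3.07 under DBMIB, beside medians of 0.01 and 0.06 over all 16283 probes. Of the 393 probes 8-fold or more higher under DBMIB, 367 (93.4%, beside 31.5% of all probes) were called higher than control under DBMIB. Under NR 168 (42.7%, beside 21.3%) were called lower and 70 (17.8%, beside 23.7%) higher. Here the medians were -0.36 under NR and 3.47 under DBMIB.

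Of the 3113 probes 2-fold or more higher under NR, 2539 (81.6%, beside 30.4% of all probes) were called lower than control under DBMIB. Under NR 972 of them (31.2%, beside 23.7%) were called higher and 738 (23.7%, beside 21.3%) lower. Of the 2534 higher under DBMIB, 1996 (78.8%, beside 31.5%) were called higher than control under DBMIB. Under NR 772 of these (30.5%, beside 21.3%) were called lower and 559 (22.1%, beside 23.7%) higher. Among all probes 10084 (61.9%) were called against control under DBMIB and 7332 (45%) under NR.

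The other 2 chemicals showed where these loci stand in the wider set of responses; each such test uses the NR or DBMIB arrays that also chose the loci. Of the 12 loci higher under DBMIB, Hexenal was above NR in 10 (16.5% of all probes were called higher under Hexenal than NR) and below DBMIB in 9 (24.6%). CHLRE_12g556228v5 changed against control by 9.08 under Hexenal and 9.05 under DBMIB, and CHLRE_10g456100v5 by 5.74 and 4.90. By contrast CHLRE_11g467644v5 changed by -0.35 under Hexenal (adjusted p = 0.588) and by 6.96 under DBMIB. CHLRE_03g146207v5 changed by 1.73 and 8.47 in the same order.

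tBOOH was below DBMIB in all 12 (25.1% of all probes), and against control its median change over them was 0.56, beside 4.33 for Hexenal. Over the 29 probes that were 64-fold or more higher under DBMIB, of which 17 have a tag and 3 may cross-hybridise, the median change against control was 7.27 under DBMIB, 4.87 under Hexenal, 0.80 under tBOOH and -0.06 under NR.

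Of the 12 loci higher under NR, Hexenal was below NR in all 12 (27.5% of all probes) and tBOOH in 10 (24.9%). The 5 loci that NR raised by 3 or more log2 units differed in their changes under tBOOH. CHLRE_10g429050v5 and CHLRE_05g234661v5 also rose under tBOOH, by 4.22 and 4.68 against control (adjusted p = 8.59e-09 and 1.3e-08), and tBOOH exceeded NR in the second by 1.07 (adjusted p = 0.017; 22.6% of all probes were called higher under tBOOH than NR). CHLRE_09g398700v5 and CHLRE_06g299700v5 changed under tBOOH by -0.21 and -0.26 (adjusted p = 0.505 and 0.306), and CHLRE_06g281250v5 rose by 1.99 (adjusted p = 0.000234). Under Hexenal CHLRE_06g281250v5, CHLRE_10g429050v5 and CHLRE_09g398700v5 rose by 2.74, 1.34 and 1.13 against control (adjusted p = 1.23e-05, 0.000561 and 0.00158). CHLRE_06g299700v5 and CHLRE_05g234661v5 changed under Hexenal by -0.83 and -0.955 (adjusted p = 0.00388 and 0.0166). In CHLRE_03g199535v5, CHLRE_01g050950v5 and CHLRE_16g663900v5, which DBMIB lowered, mean levels under tBOOH were lower still. Changes against control were -9.35, -8.15 and -8.37, with a call against DBMIB in each (adjusted p = 0.000354, 0.00197 and 0.0458). The last call was narrow: the arrays of CHLRE_16g663900v5 overlapped, at -7.05, -5.91 and -4.24 under tBOOH beside -3.11, -5.23 and -1.98. On tBOOH replicate 1 it lay below the dimmest signal well above background (-6.32), so its size is nominal. These calls were not repeated with single arrays left out. Hexenal lowered CHLRE_03g199535v5, CHLRE_01g050950v5 and CHLRE_16g663900v5 too, with called changes against control of -8.41, -6.01 and -7.73. Against DBMIB, Hexenal was called lower in the first (adjusted p = 0.0027) and not in the others (adjusted p = 0.382 and 0.112).

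Some probes were well above background under only 1 of the chemicals. On 306 probes (1.88% of all probes) every NR array and no DBMIB array was well above background. On 83 (0.51%) every DBMIB array and no NR array was. The NR arrays were brighter before scaling, and the part of this in both counts was not tested. Such probes differ by the way they were picked, so no share called or typical size is given for them. Because DBMIB replicate 2 had the fewest probes above background, both counts were repeated without it and became 307 (1.89%) and 176 (1.08%).

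Large differences occurred at all signal levels. Ranked by mean level into 4 equal groups from dim to bright, the called share was 41.2%, 56.6%, 63.8% and 65.0%. In the same order, 17, 40, 44 and 27 probes were 8-fold or more higher under NR, and 77, 100, 114 and 102 under DBMIB. The spread between replicates fell as signals brightened, from a median SD of 0.279 to 0.179 under NR and from 0.483 to 0.230 under DBMIB.

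Replicates disagreed strongly on few probes. An SD over 1 was found on 107 probes under NR (0.657%) and 237 under DBMIB (1.46%). NR replicate 1 was the array farthest from the other NR arrays on 81 of the 107, which is also how it stood in CHLRE_07g318800v5 and CHLRE_07g318850v5. Under DBMIB the farthest array was replicate 1 on 93, replicate 2 on 78 and replicate 3 on 66 probes.

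A large part of the transcripts differed little. For 6138 probes (37.7%) the 95% interval of the difference lay within 2-fold either way; 5226 of them were not called and 912 were called with small differences. A further 1829 probes were not called but had wider intervals, so for them a 2-fold difference is not excluded. The intervals of 1531 probes (9.40%) lay within 1.5-fold. These counts depend on the centring: they were not repeated with spike-in centring, which moved the median over all probes by 0.50 towards NR.

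Among the 500 brightest probes, the 4 with the smallest differences were those for transcripts 399300, 322023, 297352 and 196805, none with a locus tag. Transcript 196805 stood at 8.08, 8.09 and 7.95 under NR and at 8.19, 8.07 and 7.88 under DBMIB, and its interval ran from -0.34 to 0.32. Transcript 399300 stood at 5.61, 5.74 and 5.62 against 5.94, 5.64 and 5.38, with an interval from -0.37 to 0.37. The arrays of both groups overlapped in each. Intervals ran from -0.41 to 0.40 for transcript 297352 and from -0.46 to 0.45 for 322023, whose probe may cross-hybridise. These small differences depend on the scaling: with quantile normalization transcripts 297352 and 196805 were at 0.47 and 0.50 towards NR and passed the test (adjusted p = 0.0142 and 0.00661), as they did on the deposited values (adjusted p = 0.011 and 0.00887). With spike-in centring all 4 were at 0.49 to 0.50 towards NR and did not pass it (adjusted p = 0.0837 to 0.159).

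Probe class and annotation went with the calls to some extent. Probes that may read related transcripts were called in 60.9% of cases and specific ones in 56.4%. Of 1040 such probes 409 (39.3%, beside 28.3% of all probes) were higher under DBMIB and 224 (21.5%, beside 28.4%) under NR. They are 6.39% of all probes, and they made up 45 of the 393 probes 8-fold or more higher under DBMIB (11.5%) and 3 of the 128 higher under NR (2.34%). Probes tied to a locus were called in 59.4% of cases and the others in 54.7%. Of 44 loci with several probes, only 24 had the same sign on all of them. In 12 loci all probes were called, and 11 of these had 1 sign. The gap between the highest and lowest difference within a locus had a median of 0.92 log2 units and reached 3.40. Each named locus is given by the most different of its probes that met the rule.

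Loci with large differences sometimes lay side by side in the v5.5 annotation. Of 6656 measured loci, 452 (6.79%) were called 4-fold or more higher under NR and 331 (4.97%) under DBMIB. Measured neighbours formed 2962 pairs. Both members were 4-fold higher under NR in 22 pairs and under DBMIB in 16, and the members took opposite sides in 10. Of the measured neighbours of a locus higher under NR, 10.6% were themselves in that set, beside 7.04% of all places in pairs; for DBMIB the shares were 11.1% and 4.86%. No run was longer than 2 loci. No test was made of these shares.

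The pair CHLRE_07g318800v5 and CHLRE_07g318850v5 described above had the largest differences. CHLRE_03g152701v5 and its neighbour CHLRE_03g152750v5 came next. CHLRE_03g152701v5 stood at -7.52, -8.29 and -7.92 under NR, not well above background on any of these arrays, and at -2.67, -2.52 and -2.50 under DBMIB. CHLRE_03g152750v5 stood at -4.09, 0.17 and -0.83 under NR and at 4.96, 4.49 and 4.52 under DBMIB, a 75.6-fold difference, with NR replicate 1 again lowest. Against control they rose by 5.40 and 8.41 under DBMIB, and under NR they stood 0.23 and 2.28 above control (adjusted p = 0.562 and 0.0317). The control level of CHLRE_03g152701v5 was thus near its undetected NR level, so the size of its rise is nominal.

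CHLRE_06g277150v5 and CHLRE_06g277200v5 were 47.3-fold and 10.8-fold higher under DBMIB. The first stood at -5.85, -5.93 and -5.30 under NR, where 2 of 3 arrays were well above background, and at 0.10, -0.49 and -0.002 under DBMIB. On the side of NR, CHLRE_10g446500v5 and CHLRE_10g446550v5 were 9.88-fold and 9.67-fold higher. CHLRE_10g446550v5 stood at -0.19, -0.35 and -0.42 under NR and at -3.16, -3.70 and -3.93 under DBMIB, and it fell by 2.72 against control under DBMIB while its NR change was 0.53 (adjusted p = 0.0748). These pairs were picked after their values were seen.

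Over the 17 chromosomes the called share of loci ran from 42.1% on chromosome 15, which has 38 measured loci, to 63.4% on chromosome 6, and called loci occurred on all of them.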

How the data were processed

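RNA from 15 cultures was measured on 1-colour arrays. For the 12 treated arrays the deposited scanner tables hold background-corrected processed signal intensity per spot, linear and not normalized between arrays, per the file headers; control arrays entered only through the authors' deposited log2 values of all 15 arrays. These rank probes as the scanner signals do (Spearman correlation 1 on each treated array), and the treated arrays have nearly equal medians. They are thus normalized between arrays, without centring per probe. Other quantiles were not compared, so the kind of normalization is not settled here. No scanner software version is named here. Depth is not defined for arrays, and the number of arrays limits precision.

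From the intensities, spots flagged as outliers (1.55% to 1.62% of 43803 spots on these 6 arrays) were left out unless all of a probe's were; remaining spots were averaged as log2 and the array's 75th percentile subtracted. limma 3.58.1 in R 4.3.3 (lmFit, eBayes) was fitted over the 12 treated arrays, contrast NR minus DBMIB, and, for changes against control, over the deposited values of 15 arrays. It was tested on simulated data. No filter on dim probes was used. Detection (well above background) of a probe needed a share of 0.5 or more of its spots to carry the scanner's flag. Tables and figures used Python 3.11.15, pandas 2.3.3 and matplotlib 3.10.9.

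Transcript numbers below 200000 were matched to older locus tags in a RefSeq table of assembly Chlamydomonas_reinhardtii_v5.5, a later build than the array's, used for tags, chromosomes and order only. Named loci are the 12 highest and 12 lowest differences among called, specific, tagged probes without overlap between the groups and well above background on every array of the brighter group, 1 per locus, and the 4 least different of the 500 brightest probes. The remaining parts of the rule, the planned lists of genes by pathway and the planned promoter motifs need symbols or sequences that the tables used here do not hold, so they were not analysed here. The members, lists and alternatives were chosen with earlier results of these data known. The alternatives were other centrings, background correction, spots, arrays, filters, a replicate block and leaving out each array in turn.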

Additional observations from a re-analysis of the deposited data

How the results depend on the processing

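The number of calls between NR and DBMIB stayed within 1.5 times of 9228 under every alternative tried (8148 to 9500 when 1 NR or DBMIB array was left out, 8256 with the 6 arrays alone, 9304 on the deposited values, 8761 of 14311 probes without dim probes), and 10005 probes had an unadjusted p under 0.05. What moved was the split by direction. With spike-in centring 2027 probes were called higher under DBMIB, 4950 and 1479 differed by 2-fold or more towards NR and DBMIB, and 373 and 251 by 8-fold or more. With normexp correction, 8535 were called higher under DBMIB, 1578 and 1671 differed by 2-fold or more, and 20 and 154 by 8-fold or more. The cause was not tested. Leaving out 1 array gave 4123 to 4858 calls higher under NR, 3839 to 4642 under DBMIB, 2894 to 3468 and 2337 to 2783 probes at 2-fold or more, and 71 to 176 and 373 to 411 at 8-fold or more; the 71 came without DBMIB replicate 2. Without that array the probes detected only under DBMIB numbered 176 (1.08% of all probes). The 8-fold and detection counts, and the spots used for normexp (median signals, leaving out spots whose background exceeded their signal by 100 or more), were chosen after seeing the data. Of the least different probes, transcript 297352 turned to 0.47 with quantile normalization and 0.49 on the deposited values, and 196805 to 0.50 and 0.46, all called. With normexp correction 15 of the 24 named differences moved by more than 1.5-fold in size. Slide as a block was not run, because the tables used here name no slide.

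Whether replicate numbers pair the cultures cannot be told from 3 arrays per group. Deviations of same-numbered NR and DBMIB arrays correlated at -0.004, 0.098 and -0.065 across probes. Those of differently numbered arrays correlated at -0.104 to 0.113. With the replicate block 9613 probes were called, and the NR change of CHLRE_17g733350v5 was no longer called (adjusted p = 0.0548).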
